A study of Mus musculus with 4 samples.

Results

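The genes described here are 10 identity markers of the hair follicle bulge, measured in bulge stem cells from mice given CSA or vehicle. The markers were chosen by symbol. They comprise the surface and membrane protein genes Cd34, Cd200, Itga6, Lgr5 and Lrig1, the secreted and matrix protein genes Postn, Npnt and Ptn, and the keratin genes Krt15 and Krt24. Each had exactly 1 row that the array annotation assigned to it alone, so 10 rows of 28815 were kept, for 10 of the 19935 genes that such rows name. The CSA group was 2 samples from male CD-1 mice at postnatal day 56 that had received 100 mg/kg CSA in the peritoneum for 3 days. The control was 2 samples from mice of the same sex, strain and age that had received vehicle on the same schedule. All 4 samples were cells sorted by the surface proteins CD34 and alpha6 integrin from skin whose follicles were in their second rest (telogen). No pregnant or lactating animals, which the series title names, are among the samples analysed here. The abbreviation CSA is not expanded in the labels; in work on calcineurin it is used for cyclosporine A, an inhibitor of this phosphatase that leaves NFAT transcription factors in the cytoplasm. The number of mice behind each sample is not stated, and the drug reached the whole animal.

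The bulge is the part of the hair follicle that holds its resting stem cells. These cells are told apart from the rest of the epidermis by surface proteins such as CD34, by keratins such as keratin 15, and by the matrix they lay down around themselves, which also anchors the muscle that raises the hair. Because CD34 and alpha6 integrin, the product of Itga6, were the sort gates, transcripts of Cd34 and Itga6 belong to proteins that every sorted cell was selected to carry.

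Values are on a log scale taken as log2, and the authors had subtracted a baseline that is not stated from each row. A value is therefore a distance from that baseline and not an abundance, and levels of different genes cannot be compared as amounts of RNA. Some rows held equal values of opposite sign, such as -0.027 on CSA replicate 2 and 0.027 on vehicle replicate 1 for Lrig2. A row median over an even number of arrays, these among them, would give such pairs. The baseline may thus depend in part on these same arrays. Higher was taken as more RNA. Medians over all rows lay between -0.02 and 0.06 on the 4 arrays, whose number limits the precision of every value. CSA replicate 2 and vehicle replicate 2 resembled each other more (Pearson r of 0.516 over rows) than any other pair of arrays did (0.02 to 0.168). The labels do not say what the replicate number stands for.

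Against the baseline the 10 markers fell into 3 kinds. Cd34, Lgr5 and Krt24 stood far above it on every array. Cd200, Postn, Ptn and Npnt lay moderately above it on the vehicle arrays. Krt15 lay close to it, and Itga6 and Lrig1 lay below it on 3 of the 4 arrays. In all, 6 of the 10 were above the baseline on all 4 arrays, as were 3.66% of all rows. Of the sort markers, Cd34 thus stood far above the baseline and Itga6 did not. On a scale with no zero of RNA, a value at or below the baseline does not show that a transcript was scarce.

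**Figure D1:**
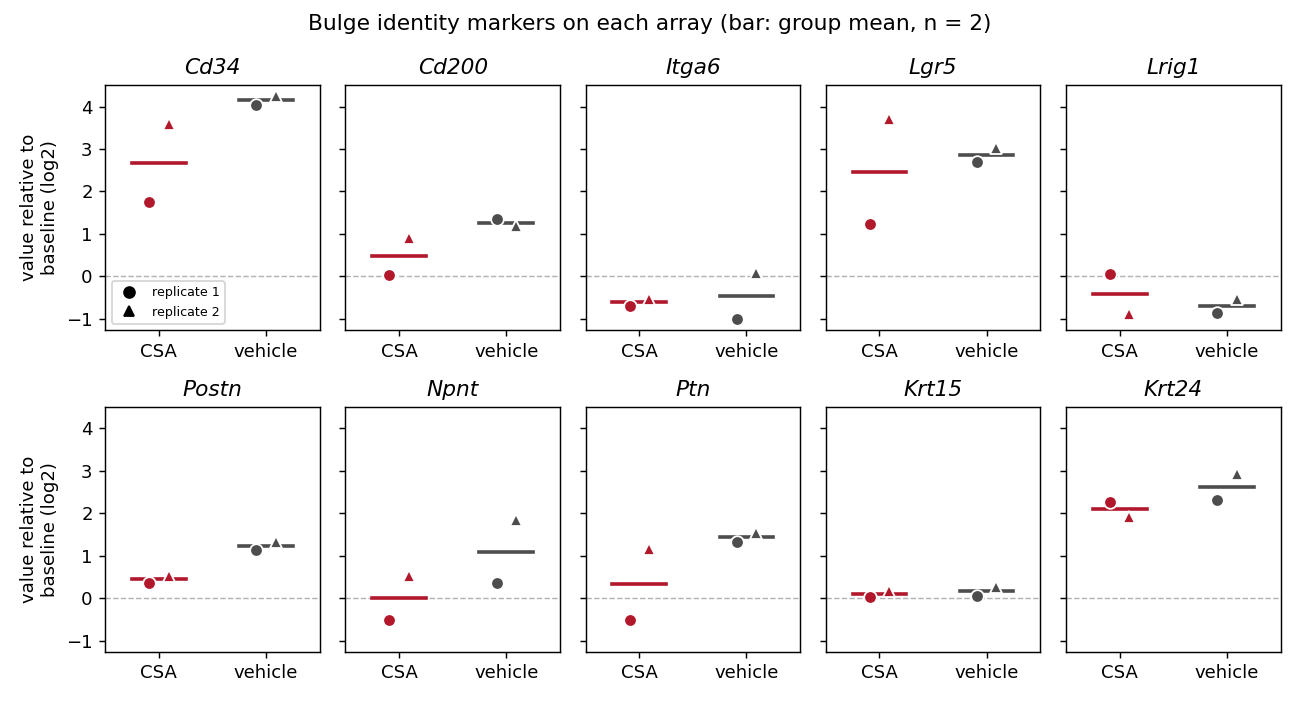
Value of each of the 10 markers on each array, in log2 units relative to the authors' baseline (dashed line). Circles are replicate 1, triangles are replicate 2, and bars are group means of 2 arrays. For Cd34, Cd200, Postn, Ptn and Krt24 both CSA arrays (left) lie below both vehicle arrays (right), and for Cd34, Lgr5 and Ptn the CSA arrays lie 1.85, 2.48 and 1.69 apart. For Npnt and Itga6 the vehicle arrays lie 1.48 and 1.08 apart.

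Compared between treatments, 9 of the 10 markers had a lower mean in CSA than in vehicle, where 57.9% of all rows did. For 5 of them, Cd34, Ptn, Cd200, Postn and Krt24, both CSA arrays lay below both vehicle arrays, against 15.2% of all rows. For 4 of these 5, all but Krt24, the means were also at least 1.5-fold apart, against 1.96% of all rows. In no marker did both CSA arrays lie above both vehicle arrays, a pattern of 11.4% of rows. The median difference over the markers was -0.66, beside -0.04 over all rows. The markers were chosen with earlier results of these data known, so these shares describe them and test nothing.

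No marker passed the test. limma called 0 of the 28815 rows at an adjusted p under 0.05 (0% of rows), and the adjusted p was 0.9999 for each of the 10 markers. At an unadjusted p under 0.05 limma gave 845 rows, 325 lower in CSA (1.13% of rows) and 520 higher (1.8%), and a fit without moderation gave 801. Postn was the 1 marker among them. With 2 arrays per group an exact two-sided permutation test has 6 ways of parting the arrays and cannot give a p below 0.333. That value was reached by the 5 markers whose groups did not overlap. The design text calls the 2 samples of a group biological replicates without saying whether animals were pooled, so p-values measure only the spread between these samples. In sorted populations such as these, fewer cells that carry a transcript and less of it in each cell cannot be told apart.

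The promoters of the 5 markers whose groups did not overlap are shown with matches to GGAAA, the core motif of NFAT factors, which calcineurin, named in the series title, is known to act on. These genes were picked by their values and did not pass the test. The sequences are the 250 bases before the annotated start in RefSeq on GRCm38.p6, read 5′ to 3′ on the strand of the gene. Capitals mark GGAAA or its reverse complement TTTCC.
Cd34, plus strand, chr1:194938571-194938820: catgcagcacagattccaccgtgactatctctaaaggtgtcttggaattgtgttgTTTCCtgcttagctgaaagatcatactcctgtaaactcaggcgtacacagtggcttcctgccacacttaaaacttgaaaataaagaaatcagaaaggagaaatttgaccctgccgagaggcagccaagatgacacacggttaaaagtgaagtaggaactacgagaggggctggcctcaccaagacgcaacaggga
Postn, plus strand, chr3:54360857-54361106: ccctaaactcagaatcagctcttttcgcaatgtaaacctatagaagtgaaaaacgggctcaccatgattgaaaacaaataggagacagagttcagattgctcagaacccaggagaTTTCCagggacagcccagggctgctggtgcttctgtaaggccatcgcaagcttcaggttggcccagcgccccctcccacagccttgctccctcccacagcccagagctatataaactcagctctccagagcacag
Ptn, minus strand, chr6:36810180-36810429: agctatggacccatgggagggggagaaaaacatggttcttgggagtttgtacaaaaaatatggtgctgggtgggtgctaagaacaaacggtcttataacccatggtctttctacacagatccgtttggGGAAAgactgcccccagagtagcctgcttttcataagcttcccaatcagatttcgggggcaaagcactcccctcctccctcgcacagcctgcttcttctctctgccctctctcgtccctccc
Krt24, minus strand, chr11:99285263-99285512: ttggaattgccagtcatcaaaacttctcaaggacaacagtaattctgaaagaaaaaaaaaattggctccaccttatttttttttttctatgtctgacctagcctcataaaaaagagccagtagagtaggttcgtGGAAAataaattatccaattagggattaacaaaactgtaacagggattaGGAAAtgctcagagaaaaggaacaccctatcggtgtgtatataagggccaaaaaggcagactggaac
Cd200, minus strand, chr16:45409054-45409303: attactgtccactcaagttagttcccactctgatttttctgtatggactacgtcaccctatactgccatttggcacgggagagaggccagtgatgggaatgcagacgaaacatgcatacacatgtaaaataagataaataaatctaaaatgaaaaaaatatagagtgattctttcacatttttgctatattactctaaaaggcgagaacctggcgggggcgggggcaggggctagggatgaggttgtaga

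In these windows Cd34 held the motif once, with its first base at position -195, where -1 is the last base before the start, Postn once at -135 and Ptn once at -122. Krt24 held it at -116 and at -67, and the letters do not occur in the window of Cd200. The motif was looked for on both strands, and 55.6% of the 32851 promoter windows in the table held at least 1, so its presence is common. Of the 10 markers 7 had a window in the table, and 5 of their 9 windows held the motif. Npnt and Lrig1 also had windows, and Itga6, Krt15 and Lgr5 were not matched. The Postn window shown also has the TATA box letters TATAAA at -26, found in 12.4% of all windows on either strand and in no other member's window. Only these exact letters were looked for, so a TATA box spelled otherwise in another member's window was not counted. Postn has a second annotated start upstream, whose window held neither motif. A match is a run of letters and does not show that a factor binds there.

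Cd34 encodes the sialomucin used for the sort. The CSA arrays gave 1.75 and 3.60, against 4.05 and 4.25 on the vehicle arrays. All 4 are high, both CSA arrays are below both vehicle arrays, and the gap between the CSA arrays, 1.85, is wider than that between the group means. The means were 2.67 ± 1.31 in CSA and 4.15 ± 0.14 in vehicle (SD, n = 2 each). The difference was -1.47 ± 0.68 (limma's moderated standard error, as for each difference that follows), 2.78-fold lower, with a 95% interval of -3.39 to 0.44. Among the 28815 rows Cd34 ranked 107th and 3rd from the top on the CSA arrays, and 4th and 2nd on the vehicle arrays. On CSA replicate 2 its distance from the baseline was thus among the greatest of any row, as in vehicle. The difference shrank to -0.55 when CSA replicate 1 was left out and widened to -2.40 when CSA replicate 2 was left out. After quantile normalization it was -0.97.

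Cd200 encodes a surface glycoprotein that restrains immune cells through its receptor, Cd200r1. It stood at 0.03 and 0.91 on the CSA arrays, against 1.35 and 1.18 on the vehicle arrays. The groups do not overlap, with CSA replicate 1 at the baseline and CSA replicate 2 only slightly below vehicle. The difference was -0.80 ± 0.35, with a 95% interval of -1.77 to 0.18, and moved to -0.36 when CSA replicate 1 was left out and to -1.23 when CSA replicate 2 was.

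Lgr5 encodes a receptor for R-spondins, secreted proteins that strengthen Wnt signals, and marks stem cells of the bulge and of other epithelia. The CSA arrays gave 1.22 and 3.70, against 2.70 and 3.02 on the vehicle arrays. The CSA arrays lie on either side of both vehicle arrays. The difference was -0.40 ± 0.91, with a 95% interval of -2.95 to 2.16, the widest of the 10. On CSA replicate 2 Lgr5 had the highest value of all 28815 rows, while on CSA replicate 1 it ranked 310th and on the vehicle arrays 47th and 22nd. Its direction is not settled, since the difference turned to 0.85 when CSA replicate 1 was left out and to 0.14 after quantile normalization, and was -1.64 when CSA replicate 2 was left out.

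Itga6 encodes the alpha6 integrin chain, which with the beta4 chain holds basal cells to the basement membrane. It was -0.70 and -0.53 on the CSA arrays, against -1.0 and 0.08 on the vehicle arrays. Here the vehicle arrays are the ones apart, and both CSA values lie between them. The difference was -0.16 ± 0.42 and turned to 0.39 without vehicle replicate 2, while it was -0.70 without vehicle replicate 1. The 95% interval was -1.32 to 1.01.

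Lrig1 encodes a membrane protein that dampens signals of the EGF receptor family and is known as a marker of stem cells in the isthmus, above the bulge. The CSA arrays gave 0.04 and -0.89, against -0.86 and -0.54 on the vehicle arrays. CSA replicate 1 is the highest of the 4 arrays, the reverse of its place for the surface markers Cd34, Cd200 and Lgr5. For Itga6, the remaining surface marker, vehicle replicate 1 is the lowest. Lrig1 was the 1 marker with a higher mean in CSA, by 0.28 ± 0.38 (95% interval -0.79 to 1.34), and without CSA replicate 1 the difference was -0.19.

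Postn encodes periostin, a secreted matrix protein that binds integrins with the alphav chain. It was 0.35 and 0.53 on the CSA arrays, against 1.13 and 1.33 on the vehicle arrays. Both groups are tight, and the gap between them is wider than the gap within either. The means were 0.44 ± 0.13 in CSA and 1.23 ± 0.14 in vehicle (SD, n = 2 each). The difference of -0.79 ± 0.16, 1.73-fold lower, had a 95% interval of -1.25 to -0.33, the only interval of the 10 that did not include 0. Its limma unadjusted p was 0.0092 and its adjusted p 0.9999. The difference stayed between -0.89 and -0.69 whichever array was left out.

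Npnt encodes nephronectin, a matrix protein that bulge cells lay down and that the arrector pili muscle holds through the alpha8 integrin. The CSA arrays gave -0.51 and 0.53, against 0.35 and 1.83 on the vehicle arrays. In each group replicate 2 is the higher, and the groups overlap because CSA replicate 2 exceeds vehicle replicate 1. The difference was -1.08 ± 0.66 (95% interval -2.94 to 0.78), and it ranged between -1.82, when vehicle replicate 1 was left out, and -0.34, when vehicle replicate 2 was. Its limma unadjusted p was 0.179, and 0.0113 with the replicate number as a block (adjusted p = 0.868).

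Ptn encodes pleiotrophin, a growth factor that binds heparin and signals through the receptor phosphatase Ptprz1. It stood at -0.53 and 1.17 on the CSA arrays, against 1.32 and 1.54 on the vehicle arrays. The groups do not overlap, but CSA replicate 2 is near vehicle and CSA replicate 1 is far below. The means were 0.32 ± 1.20 in CSA and 1.43 ± 0.15 in vehicle (SD, n = 2 each). The difference of -1.11 ± 0.63 (95% interval -2.87 to 0.65) moved to -0.26 when CSA replicate 1 was left out and to -1.95 when CSA replicate 2 was.

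Krt15 encodes a type I keratin of basal cells that is used to mark the bulge. The CSA arrays gave 0.03 and 0.17, against 0.05 and 0.26 on the vehicle arrays. All 4 are near the baseline and the groups overlap. The difference was -0.06 ± 0.16, with a 95% interval of -0.51 to 0.40, and turned to 0.018 when CSA replicate 1 was left out and to 0.052 when vehicle replicate 2 was.

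Krt24, another type I keratin gene, was far above the baseline on each array. It was 2.26 and 1.92 on the CSA arrays, against 2.31 and 2.92 on the vehicle arrays. The groups are parted by only the small step between CSA replicate 1 and vehicle replicate 1, and CSA replicate 2 is the lowest, unlike for most markers. The difference was -0.52 ± 0.28 (95% interval -1.32 to 0.27) and -0.13 after quantile normalization. With an array left out it lay between -0.83, when vehicle replicate 1 was left out, and -0.22, when vehicle replicate 2 was.

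**Figure D2:**
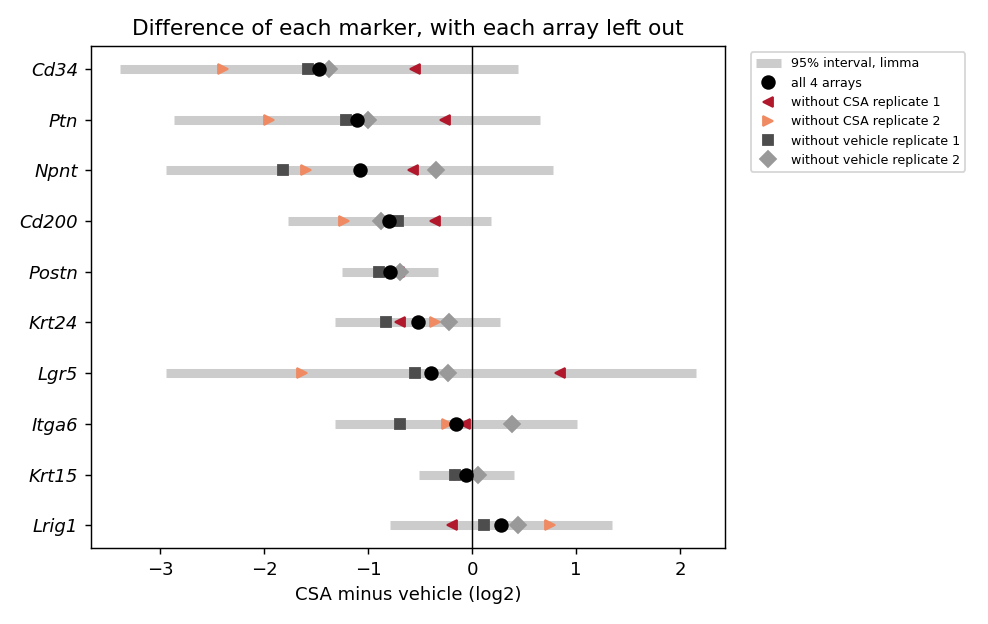
Difference of CSA minus vehicle in log2 units for each marker, from all 4 arrays (black) with limma's 95% interval (grey bar), and with each array left out in turn (coloured symbols). Postn is the 1 marker whose interval lies wholly below 0, and Lgr5, Itga6, Krt15 and Lrig1 have symbols on both sides of 0.

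The arrays within a group differed for many markers. CSA replicate 1 had the lowest value of the 4 arrays for 7 of the 10 markers, against 21.4% of all rows, and vehicle replicate 2 the highest for 7, against 14.2%. The median of the 10 markers was 0.04 on CSA replicate 1 and 0.72 on CSA replicate 2, against 1.23 on vehicle replicate 1 and 1.43 on vehicle replicate 2. Both CSA medians lie below both vehicle medians, and CSA replicate 1 is the farthest from the rest. Ordered by the gap between the CSA arrays, Lgr5 (2.48), Cd34 (1.85) and Ptn (1.69) came first, while the vehicle arrays of these genes lay 0.32, 0.20 and 0.22 apart. The CSA gap was also the wider for Lrig1 (0.94 against 0.32) and Cd200 (0.88 against 0.17). The vehicle gap was the wider for Npnt (1.48 against 1.04 in CSA), Itga6 (1.08 against 0.17) and Krt24 (0.60 against 0.34). It was slightly wider for Krt15 (0.22 against 0.15) and Postn (0.20 against 0.18). Leaving out CSA replicate 1 moved the median difference to -0.31, and leaving out CSA replicate 2 moved it to -1.06. With vehicle replicate 1 left out it was -0.77, and with vehicle replicate 2 left out -0.29.

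Proteins that act with these markers, or are close relatives of them, were looked at as a list of genes, of which 27 were analysed here. CSA was lower for 20 (57.9% of all rows were) and higher for 7, with a median of -0.19 beside -0.04 over all rows, and limma called 0. Both CSA arrays lay below both vehicle arrays for 8 of the 27, against 15.2% of all rows, and above them for 2, against 11.4%. Among integrin chains Itgav, a receptor chain for periostin, had -0.45 and -0.23 on the CSA arrays, against 0.49 and 0.30 on the vehicle arrays (-0.74 ± 0.17). Itgb1, which pairs with the alpha6, alpha8 and alphav chains, had -0.10 and -0.15, against 0.38 and 0.28 on vehicle arrays (-0.45 ± 0.14). Itgb5, which pairs with alphav, lay the other way, at 0.46 and 0.22 in CSA and -0.37 and -0.07 in vehicle (0.56 ± 0.19). Itgb3, another beta chain of the list that pairs with alphav, differed by -0.01 ± 0.19 and its groups overlap. It is named after its values were seen. Egfr, which Lrig1 restrains, had 0.06 and 0.07 with CSA, against 0.56 and 0.61 with vehicle (-0.52 ± 0.13). For Itgav, Itgb1, Itgb5 and Egfr the groups do not overlap, and the limma adjusted p of each was 0.9999.

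The other partners are named after their values were seen. Itgb4, the partner of alpha6, differed by -0.28 ± 0.21 and the pleiotrophin receptor gene Ptprz1 by -0.56 ± 0.26. Lgr4, the relative of Lgr5, was above the baseline on all 4 arrays and differed by -0.54 ± 0.31, while the relative Lgr6 differed by -0.08 ± 0.39. The basal keratin gene Krt5 differed by -0.35 ± 0.19, and Krt14, its type I partner, by 0.22 ± 0.26. The receptor genes Itga8 and Cd200r1, whose ligands Npnt and Cd200 are bulge markers, lay near the baseline on all 4 arrays and differed by 0.04 ± 0.14 and -0.04 ± 0.14.

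**Figure D3:**
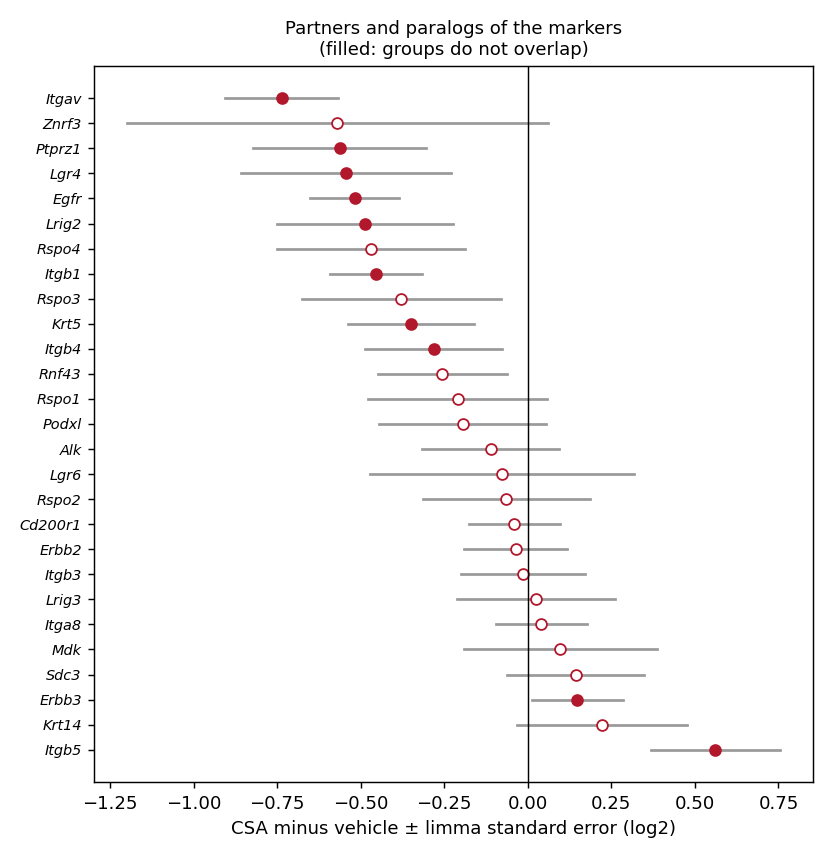
Difference of CSA minus vehicle in log2 units, with limma's standard error, for the 27 measured partners and relatives of the markers. Filled symbols mark genes whose groups do not overlap; Itgav is the lowest at -0.74 and Itgb5 the highest at 0.56.

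A second list held 30 other bulge genes, transcription factors and signalling and matrix proteins, all with a row of their own. CSA was lower for 18, a share near the 57.9% of all rows, and higher for 12, with a median of -0.22, and limma called 0. The median of the list was 0.33 and 1.01 on the CSA arrays, against 0.53 and 0.95 on the vehicle arrays. Both replicate 2 arrays thus lay above both replicate 1 arrays. CSA replicate 1 was the lowest array for 16 of the 30, against 21.4% of all rows. CSA lay below vehicle without overlap for 9 of the 30, against 15.2% of all rows, and above it for 1, against 11.4%. The 4 with the highest absolute t were lower in CSA. Dab2, an endocytic adaptor, had 0.65 and 1.47 in CSA, against 2.39 on both vehicle arrays (-1.33 ± 0.32). Ltbp1, which binds latent TGF-beta in the matrix, had -0.19 and 0.10 with CSA, against 1.18 and 2.42 with vehicle (-1.85 ± 0.48). The matrix gene Tnc, for tenascin C, had -0.24 and 0.76 with CSA, against 1.16 and 2.27 with vehicle (-1.45 ± 0.55). Nfib, a transcription factor gene, differed by -0.46 ± 0.16. Runx1, chosen after its values were seen, is the gene of the list that was higher in CSA without overlap, at 1.02 and 1.56 in CSA and 0.00 and 0.92 in vehicle (0.83 ± 0.41).

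Genes whose 4 values lay nearest to those of a marker were found by Euclidean distance over the 4 arrays. Nearest to Cd34 were Il31ra at a distance of 1.72, the marker Lgr5 at 1.90 and Pdzrn4 at 1.91, so no gene matched its height closely. Nearest to Lgr5 were Grem1 at 1.37, Fam171b at 1.46 and Hmcn1 at 1.55. This row of Hmcn1 had 0.75 and 2.41 in CSA and 2.00 and 3.17 in vehicle. Another row of Hmcn1 was unlike it, with 1.67 and 1.65 in CSA and 2.40 and 2.32 in vehicle. Grem1, a secreted BMP antagonist, shared the spread of the CSA arrays, with 0.06 and 3.27 in CSA and 2.55 and 3.59 in vehicle. Postn had closer neighbours, Adamtsl4 at 0.24, Tfap2b at 0.28 and Vwa2 at 0.29. Over 4 arrays such likeness is a description only.

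Markers of other cells that a skin sort could hold were set beside these results. Those of differentiated epidermis were lower in CSA for 7 of 7, where 57.9% of all rows were, and vehicle replicate 1 was the highest array for all 7. Their median was -1.16 and -0.67 on the CSA arrays, against 0.47 and -0.40 on the vehicle arrays. Endothelial cells also carry CD34, and their markers were lower in CSA for 7 of 7, with a median of -0.01 and -0.09 in CSA and 0.27 and -0.00 in vehicle. The fibroblast median was 0.03 and -0.01 with CSA, against 0.08 and -0.04 with vehicle. The melanocyte median was 0.08 and -0.12 with CSA, against 0.14 and -0.04 with vehicle. The sebaceous median was -0.09 and -0.22 with CSA, against 0.14 and -0.25 with vehicle, and the immune median -0.10 and -0.11 in CSA, against 0.14 and -0.20 in vehicle. Lower in CSA were 6 of 7 fibroblast, 2 of 5 melanocyte, 4 of 6 sebaceous and 5 of 7 immune genes. For each of these 6 lists vehicle replicate 1 had the highest median, whereas the 10 markers were highest on vehicle replicate 2. Vehicle replicate 1 also had the highest median over all rows, 0.06, against -0.02 on vehicle replicate 2. On the CSA arrays the median over all rows was 0.01 and -0.02. Which of these cells are present cannot be read from values with no zero, and their part in the results was not tested.

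**Figure D4:**
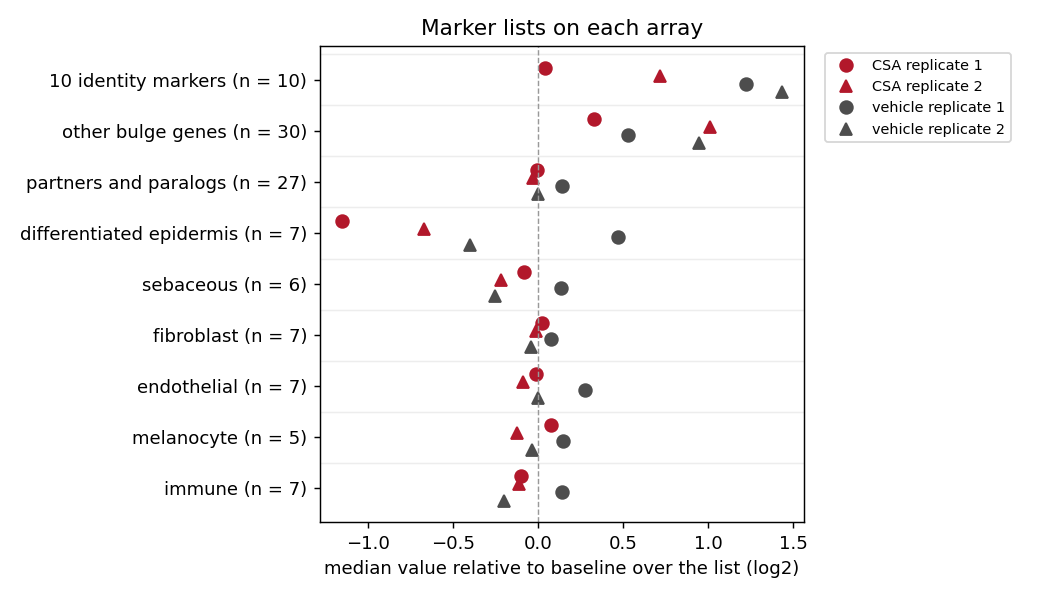
Median value over each marker list on each array, in log2 units relative to the authors' baseline, with the number of genes measured. CSA arrays are red and vehicle arrays grey. The 10 markers have their lowest median on CSA replicate 1 (0.04) and their highest on vehicle replicate 2 (1.43), while the differentiated epidermis list is highest on vehicle replicate 1 (0.47).

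Markers of the neighbouring follicle zones were few and went both ways. In the hair germ, below the bulge, 2 of 5 genes were lower and 3 higher in CSA (median 0.02). Ccnd1, for cyclin D1, was the farthest from 0, with -2.09 and -0.87 under CSA, against 0.01 and 0.07 under vehicle (-1.52 ± 0.46). Msx2 of the same list went the other way, by 0.72 ± 0.52, and its groups overlap. In the isthmus list, which includes Lrig1, 2 of 4 were lower and 2 higher (median 0.10). Plet1, a surface protein gene, had -0.12 and -0.23 with CSA and -0.86 and -0.60 with vehicle (0.55 ± 0.17). Gata6 of the same list went the other way, with -0.63 and -1.01 with CSA and -0.17 and -0.52 with vehicle (-0.48 ± 0.23). These genes are named after their values were seen. The groups of Ccnd1, Plet1 and Gata6 do not overlap. Over all rows, CSA lay below vehicle without overlap for 15.2% and above it for 11.4%. limma called 0 genes of either list.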

How the data were processed

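RNA of sorted bulge cells was measured on 4 one-colour arrays, 2 per group; per the labels' protocols, 20 ng of total RNA was amplified in 1 round and labelled with biotin. The deposited values, taken as log2, were centred per row by the authors on an unstated baseline. For the log base, software, background correction and normalization the sources used here give no statement; mm8 is the one build in the submitters' processing notes, with no role. If the base is not 2, differences scale by 1 factor.

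Groups came from the sample titles. Rows were named through the platform annotation: 21780 of 28815 name 1 gene, 1605 several and 5430 are unnamed here. RefSeq (GRCm38.p6) served for names and promoters, and promoter windows are the 250 bases before a start. limma 3.58.1 in R 4.3.3 (lmFit, eBayes without trend, two-sided) was fitted to all 28815 rows with no filter, with Benjamini-Hochberg adjustment at 0.05. Standard errors are moderated (prior degrees of freedom 1.88). The code was tested on simulated arrays. Tables were made with pandas 2.3.3.

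Members, lists and tests were chosen with earlier results of these data known. Named are all 10 members, the 4 genes with the highest absolute moderated t in the partner and other bulge lists, and the 3 nearest genes of up to 3 members; others are said to be named after their values were seen. For a listed gene with several rows the highest mean over arrays decided which was used. Alternatives were 2 scalings, a variance trend, no moderation, a replicate block, a filter on the mean at the 25th percentile, 1 row a gene, and each array left out.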

Additional observations from a re-analysis of the deposited data

How the results depend on the processing

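Under each of the 11 alternatives limma or the unmoderated fit called 0 rows at an adjusted p under 0.05; the smallest adjusted p was 0.5909, without vehicle replicate 2. At an unadjusted p under 0.05 the counts ranged from 687 without vehicle replicate 1 to 2146 without vehicle replicate 2, beside 845 with all arrays, and 1576 without CSA replicate 2. The 6 markers Cd34, Cd200, Postn, Npnt, Ptn and Krt24 were lower in CSA under every alternative run, but few of these could have changed a direction. The variance trend, the fit without moderation, the replicate block, the filter and 1 row a gene left each difference as it was. For markers whose groups did not overlap, leaving out an array cannot reverse the direction either. For Cd34, Lgr5 and Krt24 the variance trend gave standard errors of 74.58, 10.18 and 4.68, against 0.68, 0.91 and 0.28 without it. Centred values hold no abundance for such a trend to follow, so that fit is no check on these genes. Quantile normalization moved Cd34 to -0.97 and Krt24 to -0.13. Lgr5 turned to 0.14 with quantile normalization, and with an array left out it ranged from -1.64 to 0.85. With an array left out Krt15 ranged from -0.16 to 0.052, Itga6 from -0.70 to 0.39 and Lrig1 from -0.19 to 0.74. The cause was not tested. The number of markers lower in CSA was 7 to 9 of 10 with an array left out, 8 of 10 after quantile normalization and 8 of 8 under the filter on the mean, which removed Itga6 and Lrig1. That last count follows from the rows dropped, since Lrig1 was the 1 marker with a higher mean in CSA. The filter used the mean of centred values, which is not an abundance. The median difference ranged from -1.06 to -0.29 with an array left out. Postn had a limma unadjusted p between 0.0040 and 0.0577 over the alternatives, above 0.05 only without CSA replicate 1.

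Replicate numbers are shared by both groups, and deviations of same-numbered samples from their group means correlated at 0.216 over rows. With 2 pairs this does not show that the numbers pair the samples. A fit with the replicate number as a block called 0 rows, with 1366 rows at an unadjusted p under 0.05 and unadjusted p-values of 0.0092 for Postn and 0.0113 for Npnt, which had 0.179 without the block. No scanner values were used here, so signal over background was not available.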
